A study of Mus musculus with 12 samples.

Results

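CC chemokines are small secreted proteins that attract leukocytes, and 10 of their genes were followed here across injured and uninjured mouse livers. The 10 genes were Ccl2, Ccl3, Ccl4, Ccl5, Ccl6, Ccl7, Ccl9, Ccl22, Ccl24 and Ccl25. They were taken by name from a list drawn up with earlier results of these data known, and each was found by its Ensembl ID among the 24187 genes of the count table. All 10 passed the filter on low counts, which left 22581 genes to test. By the labels the mice were C57BL/6J, while the methods of the study name C57BL6/JOlaHsd for mice given APAP. Of the mice, 3 were untreated (control), 5 received acetaminophen (APAP, paracetamol) and phosphate-buffered saline vehicle (vehicle-treated) and 4 received APAP and human alternatively activated macrophages (hAAM-treated). The labels give an APAP dose of 350 mg/kg, while the paper names 500 mg/kg for its severe model. By the methods of the study, cells or vehicle followed 16 h after APAP, mice were 10 to 12 weeks old, and hAAMs were grown from donor monocytes with CSF1 and then IL-4 and IL-13 and were cryopreserved. The time of collection is given as both 32 h and 36 h after APAP. RNA of whole frozen liver was sequenced and aligned to the mouse genome, so the chemokines of the human cells were counted only as far as their reads aligned to mouse genes.

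CC chemokines are named for a pair of neighbouring cysteines near the start of the mature protein, and they act through G protein-coupled receptors of the CCR family. In injured liver, ligands of CCR2 draw monocytes out of the blood, and resident macrophages, endothelium and hepatocytes are all known to make them. TNF, IL-1 and the transcription factor NF-kB are known inducers of several of these genes, whereas CCL22 and CCL24 are known products of macrophages activated with IL-4 or IL-13.

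The codons of the cysteine pair were read from the reference transcripts, to show what gives the family its name and how the neighbouring genes differ around it. Each stretch holds 54 coding bases, with the pair in capitals, from GENCODE transcripts of the mouse genome GRCm38.
Ccl2: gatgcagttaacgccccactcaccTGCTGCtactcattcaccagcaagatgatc
Ccl7: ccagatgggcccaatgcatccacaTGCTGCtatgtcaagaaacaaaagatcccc
Ccl3: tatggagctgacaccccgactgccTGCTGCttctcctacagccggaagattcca
Ccl4: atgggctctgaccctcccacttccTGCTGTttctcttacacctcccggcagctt
Ccl6: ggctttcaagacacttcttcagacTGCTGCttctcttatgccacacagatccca
Ccl9: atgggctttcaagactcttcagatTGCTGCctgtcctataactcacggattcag

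The genes of these stretches are neighbours on chromosome 11. Ccl2 (chr11:82035571-82037453) and Ccl7 (chr11:82045712-82047525) lie on the plus strand. A second group holds Ccl5 (chr11:83525778-83530518), Ccl9 (chr11:83572919-83578636), Ccl6 (chr11:83587882-83593087) and Ccl3 (chr11:83647844-83649355) on the minus strand and Ccl4 (chr11:83662584-83664683) on the plus strand. Ccl24 is on chromosome 5 (chr5:135569937-135573049, minus strand), and Ccl25 (chr8:4325210-4360020) and Ccl22 (chr8:94745590-94751699) are on the plus strand of chromosome 8. The coding sequences of Ccl6 and Ccl9 were identical at 70.7% of 341 aligned bases, those of Ccl3 and Ccl4 at 69.6% of 270 and those of Ccl2 and Ccl7 at 68.0% of 291. Genes that lie apart were nearly as alike, up to 67.8% of 267 bases for Ccl2 and Ccl4 and 67.4% of 267 for Ccl22 and Ccl25, and the lowest value was 57.0% for Ccl9 and Ccl25. The longest run of bases shared by the transcripts of a pair was 25 for Ccl6 and Ccl9, 23 for Ccl2 and Ccl7 and 9 for Ccl3 and Ccl4. Ccl25 shares 204 exon bases with Elavl1 on the opposite strand, and since the use of strand in counting is not stated, reads of these bases could belong to either gene.

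Total counts ranged from 47391650 to 74056505 per liver. Levels are given as raw counts or as counts per 1000000 (CPM) scaled with edgeR's TMM factors, and tests are edgeR's quasi-likelihood test with a Benjamini-Hochberg false discovery rate (FDR), called under 0.05. The labels name separate mice. Hepatocyte markers were present in every liver, at a summed level of 56150 to 97440 CPM, and the Y-linked gene Ddx3y had 3064 to 4281 counts in all 12 livers. Vehicle 3 and hAAM 4 stood apart as nearly the same library. Their counts differed by 1.18 times the counting noise, against 2.42 to 5.82 times in the other 35 pairs of APAP livers, although they carry different treatments. The second library that stood apart, control 1, is described with the genes it bears on, and results that rest on these libraries are given with and without them. Both comparisons with control share the same 3 control livers.

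Compared with control livers, Ccl6 was the only one of the 10 CC chemokines called in the vehicle-treated livers, and also the only one called in the hAAM-treated livers, higher in both. It was 3.45-fold higher with vehicle and 3.09-fold higher with hAAMs. The share called higher was 1 of 10 in each comparison, against 15% of all genes tested with vehicle and 10.7% with hAAMs. None was called lower, against 14.8% and 9.96% of all genes. In either direction, 29.8% and 20.7% of all genes were called. Of these calls 50.3% and 51.8% were higher, and scaled by library size alone, which moved the median gene up, 88.6% and 89.4%. The median log2 fold change of the 10 genes was 0.16 with vehicle and 0.25 with hAAMs, beside 0.012 and 0.016 over all genes tested. Between hAAM-treated and vehicle-treated livers none of the 10 was called, and 0% of all genes were. In bulk tissue, fewer cells of a type and less RNA per cell cannot be told apart.

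**Figure D1:**
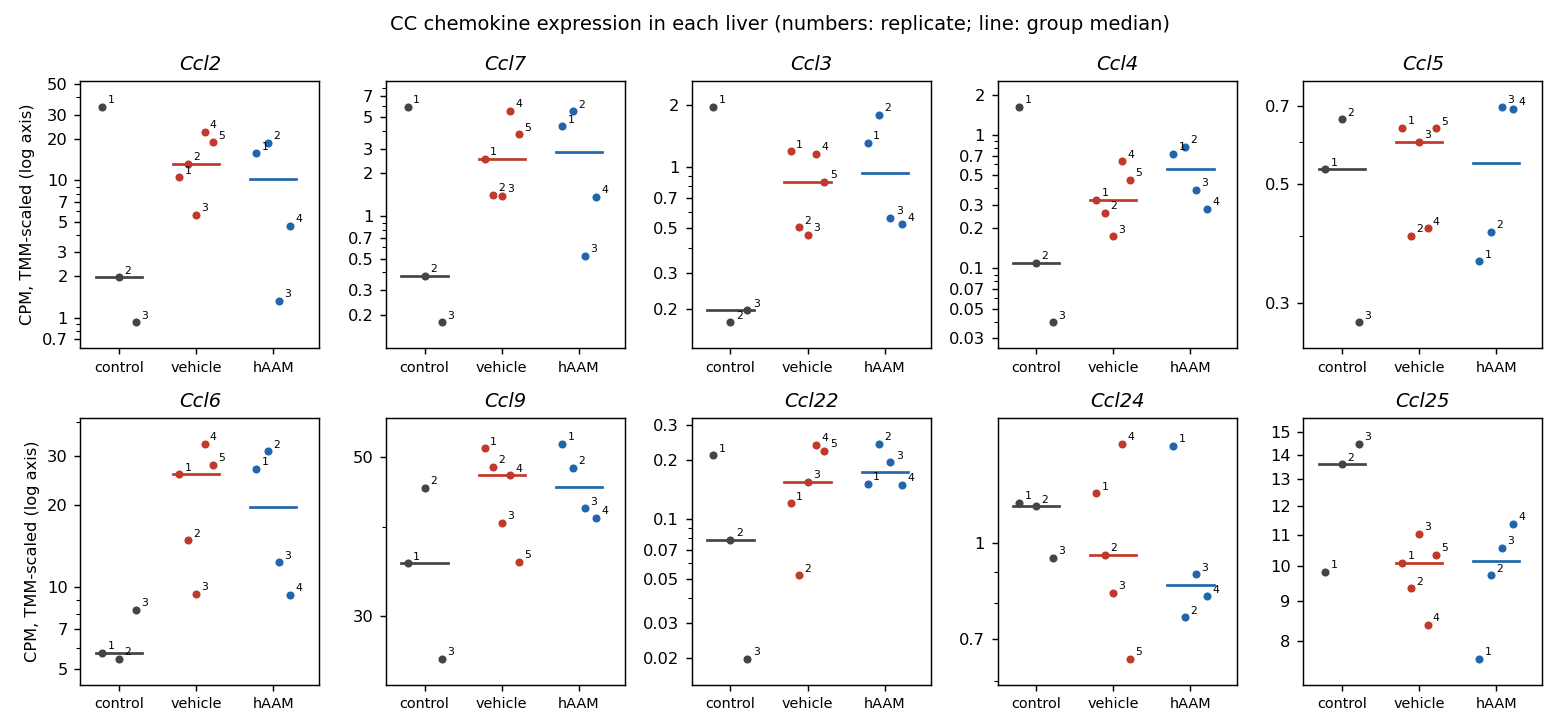
CPM of the 10 CC chemokines in each liver on log axes, by group (3 control, 5 vehicle-treated, 4 hAAM-treated), with the replicate number beside each point and a line at the group median. All 9 APAP livers sit above the 3 control livers for Ccl6, whereas for Ccl2, Ccl7, Ccl3 and Ccl4 control 1 lies far above the other two control livers.

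Ccl6, a rodent chemokine made mainly by macrophages and other myeloid cells that acts on CCR1, had 5.74, 5.46 and 8.24 CPM in control 1, 2 and 3. The vehicle-treated livers 1 to 5 had 25.8, 14.8, 9.43, 33.4 and 28.0 CPM, and the hAAM-treated livers 1 to 4 had 27.0, 31.3, 12.3 and 9.35 CPM. Every APAP liver was above every control liver, and the lowest APAP livers were vehicle 3 and hAAM 4. A gap of this kind in the higher direction was seen for 17.5% of all genes with vehicle and 14.3% with hAAMs. No member had every APAP liver of a treatment below every control liver, as 17.3% and 14.2% of all genes had. The log2 fold change against control was 1.79 (SE 0.47, FDR 0.0150) with vehicle and 1.63 (SE 0.48, FDR 0.0338) with hAAMs. Without vehicle 3 and hAAM 4 the values were 1.99 (FDR 0.00315) and 1.87 (FDR 0.00867). Without control 1, which leaves 2 control livers, they were 1.71 (FDR 0.0554) and 1.55 (FDR 0.0992), and without control 2 they were 1.67 (FDR 0.056) and 1.52 (FDR 0.0994). With hAAMs the call was also lost without control 3 (1.84, FDR 0.0658), hAAM 1 (1.45, FDR 0.0828) or hAAM 2 (1.33, FDR 0.0881).

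Ccl9, the neighbour of Ccl6 and likewise a myeloid ligand of CCR1, had 35.6, 45.4 and 26.1 CPM in the control livers. Vehicle-treated livers had 51.5, 48.6, 40.5, 47.2 and 35.7 CPM, and hAAM-treated livers 52.3, 48.4, 42.4 and 41.2 CPM. The groups overlapped, with control 2 above vehicle 3, vehicle 5, hAAM 3 and hAAM 4. The log2 fold change was 0.32 (SE 0.17, 95% interval -0.038 to 0.69, FDR 0.161) with vehicle and 0.37 (SE 0.17, 95% interval -0.0097 to 0.75, FDR 0.152) with hAAMs, so neither was called. Without control 2, the highest control liver, it was called higher in both, at 0.53 (FDR 0.0382) with vehicle and 0.58 (FDR 0.0430) with hAAMs, and in that fit Ccl6 was not called.

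The sequences before the starts of Ccl6 and Ccl9 are shown because these 2 genes lie side by side and with all livers only the first was called, an order that turned without control 2; the difference between them was not tested. Each is the 250 bases upstream of the RefSeq start on GRCm38.p6, read on the minus strand (chr11:83593088-83593337 for Ccl6 and chr11:83578637-83578886 for Ccl9). Capitals mark matches on either strand to TATAAA, to GGAAGT and to the NF-kB consensus.
Ccl6: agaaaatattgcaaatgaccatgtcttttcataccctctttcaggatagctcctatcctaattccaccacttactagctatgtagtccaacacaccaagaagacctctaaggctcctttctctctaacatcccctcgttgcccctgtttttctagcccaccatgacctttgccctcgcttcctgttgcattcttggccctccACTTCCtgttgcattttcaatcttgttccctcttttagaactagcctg
Ccl9: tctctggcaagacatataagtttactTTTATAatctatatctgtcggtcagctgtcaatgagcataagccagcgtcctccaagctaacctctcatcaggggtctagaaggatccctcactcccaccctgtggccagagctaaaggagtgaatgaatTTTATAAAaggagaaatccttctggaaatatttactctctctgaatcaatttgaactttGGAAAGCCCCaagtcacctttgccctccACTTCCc

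The reverse complement of GGAAGT, the core of sites for ETS factors such as PU.1, lay at -48 to -43 from the start of Ccl6 and at -7 to -2 from that of Ccl9. Both copies are the end of the longest run the windows share, the 13 bases gccctccacttcc. Ccl9 also held an NF-kB match at -35 to -26 and TATAAA matches that begin at -224, -94 and -92, the last 2 overlapping each other. Among 32851 promoters of the same extent (250 bases before and 50 after the start), 23.8% held GGAAGT, 13.6% TATAAA and 8.46% the NF-kB consensus. The table of promoters held 5 of the 10 genes, and of the other 3, Ccl3 and Ccl22 held GGAAGT, as did 1 of the 2 starts of Ccl25, while its other start held TATAAA.

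Ccl2, Ccl7, Ccl3 and Ccl4 were not called against control with all livers, and each of these comparisons rested on control 1. Without it, a liver singled out after its values were seen, all 4 were called higher with vehicle, and Ccl3 and Ccl4 were called higher with hAAMs. The counts below show how far that liver stood from the other control livers. What sets control 1 apart was not tested.

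Ccl2, the main ligand of CCR2 and an attractant of monocytes, had 1791, 125 and 47 counts in control 1, 2 and 3. In vehicle-treated livers the counts were 612, 760, 290, 1517 and 1277, and in hAAM-treated livers 832, 1007, 69 and 251. Control 1 was the highest of all 12 livers, at 34.1 CPM against 1.97 CPM in the next control liver, and in CPM hAAM 3 lay between the other two controls. The log2 fold change was 0.20 (SE 1.00, FDR 0.901) with vehicle and -0.29 (SE 1.04, FDR 0.872) with hAAMs. Without control 1 the level was 9.67-fold higher with vehicle (FDR 0.0341) and 6.91-fold higher with hAAMs, the latter not called (FDR 0.0755).

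Ccl7, the neighbour of Ccl2 and another CCR2 ligand, had 310, 24 and 9 counts in the control livers. Vehicle-treated livers had 147, 81, 72, 374 and 256 counts, and hAAM-treated livers 228, 296, 27 and 73. As with Ccl2, control 1 had the highest CPM and hAAM 3 was the lowest APAP liver. The log2 fold change was 0.46 (SE 0.96, FDR 0.753) with vehicle and 0.45 (SE 1.01, FDR 0.787) with hAAMs. Without control 1 it was 10.3-fold higher in both, called with vehicle (FDR 0.0353) and not with hAAMs (FDR 0.0508).

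Ccl3, a macrophage inflammatory protein that acts on CCR1, had 103, 11 and 10 counts in the control livers. Vehicle-treated livers had 69, 29, 24, 78 and 57 counts, and hAAM-treated livers 69, 97, 29 and 28. All 9 APAP livers lay between control 1 and the other two controls. With all livers the log2 fold change was 0.12 (SE 0.71, FDR 0.921) with vehicle and 0.44 (SE 0.75, FDR 0.711) with hAAMs. Without control 1 the level was 4.49-fold higher with vehicle (FDR 0.0340) and 5.63-fold higher with hAAMs (FDR 0.0310).

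Ccl4, another macrophage inflammatory protein and the neighbour of Ccl3, had 85, 7 and 2 counts in the control livers. The counts were 19, 15, 9, 43 and 31 in vehicle-treated and 38, 44, 20 and 15 in hAAM-treated livers. The same order held as for Ccl3, with every APAP liver below control 1 and above the other two controls. Fitted over all livers, the log2 fold change was -0.63 (SE 0.81, FDR 0.591) with vehicle and -0.08 (SE 0.84, FDR 0.954) with hAAMs. Without control 1 the direction turned, to 4.74-fold higher with vehicle (FDR 0.0401) and 6.93-fold higher with hAAMs (FDR 0.0268).

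Across the 10 genes, 4 were called higher and 1 lower with vehicle without control 1, and 2 higher and 1 lower with hAAMs. In that fit 11% of genes were called higher and 10.5% lower with vehicle, and 6.57% and 6.54% with hAAMs. The median log2 fold change of the 10 genes was then 1.65 and 1.67, beside 0.00732 and 0.015 over all genes. Without vehicle 3 and hAAM 4 as well, 6 of the 10 were called with vehicle, against 23.2% of all genes in that fit, and 5 with hAAMs, against 13.9%. Control 1 was singled out after its high values of Ccl2, Ccl7, Ccl3 and Ccl4 were seen. Leaving it out was bound to raise their fold changes, so these shares and medians allow no conclusion on the 10 genes as a set.

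**Figure D2:**
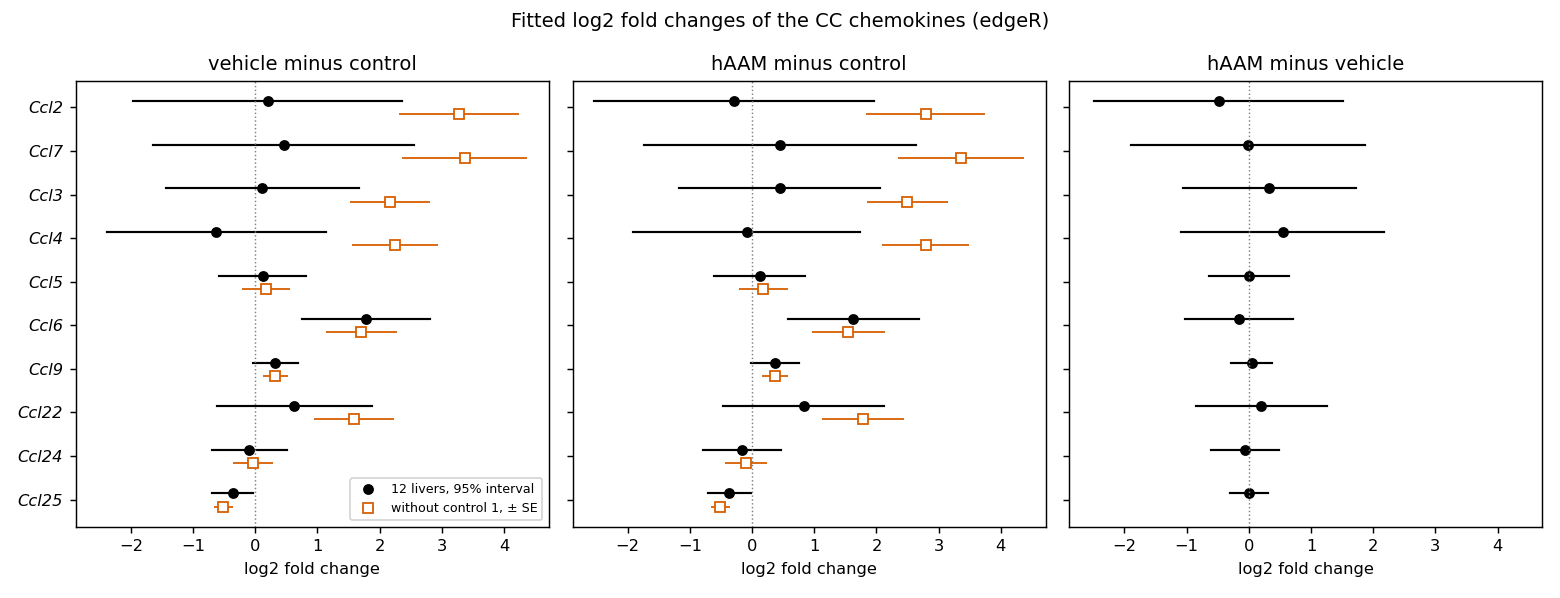
Log2 fold changes of the 10 CC chemokines from edgeR in the 3 comparisons: filled circles with 95% intervals are the fit of 12 livers, and open squares with ± SE are the fit without control 1, for the comparisons with control. Leaving out control 1 moved Ccl2, Ccl7, Ccl3 and Ccl4 by more than 2 log2 units and Ccl6 and Ccl9 little, while the intervals between treatments all cross 0.

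The level of control 1 was set against the other control livers, gene by gene. The shares below describe this liver and test nothing, since it was singled out after its values were seen. Its level was at least 2-fold above both other control livers for 5 of the 10 CC chemokines, against 2.74% of all genes, and at least 10-fold above for 3 of the 10, against 0.213%. The ratio to the next control liver was 17.4 for Ccl2, 15.7 for Ccl7, 14.7 for Ccl4, 9.94 for Ccl3 and 2.67 for Ccl22. For Ccl5, Ccl6, Ccl9 and Ccl25 control 1 was below the highest of the other two controls, and for Ccl24 the ratio was 1.01. Of 12 inducing signals 7 were at least 2-fold above both other control livers and 1 at least 10-fold. The cytokine gene Tnf was 12.7 times higher in control 1 than in the next control, Il1b 7.01 times and Il1a 2.76 times. The NF-kB subunit genes Relb and Nfkb2 were 7.45 and 2.59 times higher. Tnfaip3 and Nfkbia, which encode inhibitors of the pathway and are its targets, were 6.19 and 4.31 times higher. The ratio was 1.72 for Nfkb1, 1.47 for Il4ra, 1.29 for Rela and 1.03 for Stat6, and Il4 was lower in control 1, at 0.69 times the next control. The summed level of 6 neutrophil markers was 29.2 CPM in control 1 and 11.0 and 7.09 CPM in control 2 and 3, and that of 8 markers of recruited monocytes and macrophages was 71.2, 51.9 and 49.95 CPM. The part of these cells or signals in the chemokine levels was not tested.

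**Figure D3:**
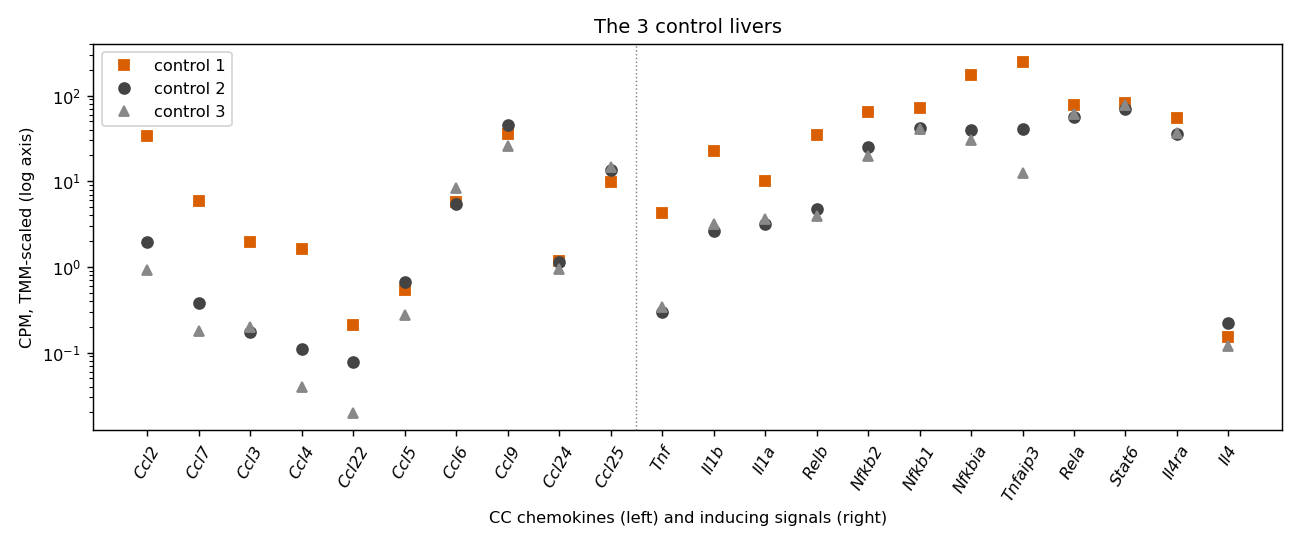
CPM on a log axis in control 1 (squares), control 2 (circles) and control 3 (triangles) for the 10 CC chemokines on the left and 12 inducing signals on the right. Control 1 separates from the other two for Ccl2, Ccl7, Ccl3, Ccl4, Tnf, Il1b, Relb, Nfkbia and Tnfaip3, and not for Ccl5, Ccl6, Ccl9, Ccl24, Ccl25 or Stat6.

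Ccl25, which acts on CCR9 and is best known from thymus and small intestine, leaned the other way from Ccl6 without being called. The control livers had 9.83, 13.6 and 14.5 CPM, the vehicle-treated livers 10.1, 9.37, 11.0, 8.38 and 10.4 CPM, and the hAAM-treated livers 7.57, 9.74, 10.6 and 11.4 CPM. Control 1 lay within the APAP range and the other two controls above it. Its log2 fold change was -0.36 (SE 0.15, FDR 0.0903) with vehicle and -0.37 (SE 0.16, FDR 0.122) with hAAMs, not called in either. Without control 1 it was called lower, at 0.70 times the control level with vehicle (FDR 0.0308) and with hAAMs (FDR 0.0478).

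Ccl5, a ligand of CCR1 and CCR3 that is made largely by T and NK cells, had 28, 42 and 14 counts in the control livers. Vehicle-treated livers had 37, 23, 31, 28 and 43 counts and hAAM-treated livers 19, 22, 36 and 37. The groups overlapped throughout, and the log2 fold change was 0.12 in both comparisons (SE 0.32, FDR 0.810 with vehicle; SE 0.34, FDR 0.826 with hAAMs). Of 6 T and NK cell markers tested, none was called in either comparison, and the summed level of these and Ncr1, which had too few counts to test, was 0.828 to 3.16 CPM over all livers.

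Ccl22, a ligand of CCR4, was the scarcest member, with 11, 5 and 1 counts in control livers, 7, 3, 8, 16 and 15 in vehicle-treated and 8, 13, 10 and 8 in hAAM-treated livers. At these counts the 95% interval of the log2 fold change ran from -0.62 to 1.88 with vehicle (FDR 0.434) and from -0.46 to 2.13 with hAAMs (FDR 0.345). Leaving out control 1, the liver with 11 counts, gave a level 3.00-fold higher with vehicle (FDR 0.101) and 3.46-fold higher with hAAMs (FDR 0.0929), not called in either. Ccl24, a ligand of CCR3 that attracts eosinophils, had 61, 73 and 48 counts in control livers, 70, 55, 43, 98 and 44 in vehicle-treated and 76, 41, 46 and 44 in hAAM-treated livers. Its log2 fold change was -0.09 (SE 0.27, FDR 0.828) with vehicle and -0.15 (SE 0.29, FDR 0.742) with hAAMs. Of the 3 eosinophil markers, the 1 in the count table, Siglecf, was called higher in both comparisons (log2 fold change 2.99, FDR 0.0444, and 3.48, FDR 0.0339), from 2 to 7 counts in control livers to 5 to 82 counts in APAP livers. Neither Siglecf call held with any one control liver left out. Leaving out control 1, which had 2 counts, left 6.65-fold and 9.31-fold higher levels (FDR 0.128 and 0.102), against 7.95-fold and 11.1-fold with all livers. Leaving out control 3, which had 7 counts, gave 14.9-fold and 20.9-fold (FDR 0.0646 and 0.0613). The call was also lost without vehicle 1, 2, 4 or 5 or hAAM 1 with vehicle (FDR up to 0.0902), and without hAAM 1 or 2 with hAAMs (FDR 0.0770 and 0.0866).

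The question of whether hAAMs changed the chemokines of the injured liver is answered by the comparison between the treatments. None of the 10 genes was called, with FDR from 0.989 to 1.00, and none had an unadjusted p under 0.05, which 5.02% of all genes had. DESeq2 called 1 of all genes and none of the 10, and none of the 10 was called without vehicle 3 and hAAM 4. The intervals state what sizes remain possible. They were narrow for Ccl9 (log2 fold change 0.04, 95% interval -0.29 to 0.37) and Ccl25 (-0.0052, -0.31 to 0.30), wider for Ccl24 (-0.06, -0.61 to 0.49), Ccl5 (0.0039, -0.63 to 0.64), Ccl6 (-0.16, -1.03 to 0.71) and Ccl22 (0.20, -0.84 to 1.25). For Ccl2 (-0.49, -2.48 to 1.51), Ccl7 (-0.0097, -1.89 to 1.87), Ccl3 (0.33, -1.07 to 1.72) and Ccl4 (0.54, -1.09 to 2.18) a change of 2-fold in either direction lay inside the interval. Control 1 enters these comparisons through the spread shared by all groups and, to a small extent, through the filter and the scaling. Without control 1 the intervals were narrower, at -1.85 to 0.88 for Ccl2 and -1.335 to 1.32 for Ccl7. They were -0.56 to 1.21 for Ccl3 and -0.35 to 1.44 for Ccl4. A level 2-fold lower with hAAMs then lay outside the interval of Ccl3 and of Ccl4, while 2-fold higher stayed inside. All these intervals include vehicle 3 and hAAM 4, nearly the same library under different treatments, and none is given here without that pair.

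Within the APAP livers, neighbouring genes were compared for how they varied from liver to liver. Over the 9 APAP livers the log2 CPM of Ccl2 and Ccl7 had Pearson's r of 0.92 (exact permutation p = 0.000598, adjusted over 3 pairs 0.00179) and Spearman's rho of 0.93 (p = 0.00075 by exact permutation, adjusted 0.00225). For Ccl3 and Ccl4 r was 0.86 (exact permutation p = 0.0045, adjusted 0.00674) and rho 0.90 (exact permutation p = 0.00203, adjusted 0.00304). For Ccl6 and Ccl9 r was 0.40 (exact permutation p = 0.285) and rho 0.27 (exact permutation p = 0.493). These values pool both treatments, which have too few livers for a value each. No genes that lie apart were correlated, so the values do not show whether varying together is particular to neighbours. In the order of livers by CPM, Ccl6 ran close to Ccl2 and Ccl7, which lie apart from it. Vehicle 4 was highest for Ccl2, Ccl7 and Ccl6 alike, and vehicle 3, hAAM 3 and hAAM 4 ranked 7 to 9. Without the 2 livers farthest from the median of the first gene, r was 0.82 for Ccl2 and Ccl7 (exact permutation p = 0.0157, adjusted 0.0470), 0.75 for Ccl3 and Ccl4 (p = 0.0673 by exact permutation, adjusted 0.101) and 0.12 for Ccl6 and Ccl9 (p = 0.836 by exact permutation). Over the same livers Spearman's rho was 0.86 (exact permutation, adjusted p = 0.0714), 0.79 (exact permutation, adjusted p = 0.0720) and -0.14. With these 7 livers the call for Ccl3 and Ccl4 was lost by both measures, and that for Ccl2 and Ccl7 by rho. Without vehicle 3 and hAAM 4, r was 0.91 (exact permutation, adjusted p = 0.0244), 0.80 (exact permutation, adjusted p = 0.0592) and 0.12, and the values of rho and their adjusted p were the same as above. Of the calls without that pair of livers, only that of Ccl2 and Ccl7 by r remained. Without vehicle 5, a liver picked after its values were seen, Ccl6 and Ccl9 had r of 0.83 (exact permutation, adjusted p = 0.0219) and rho of 0.595 (exact permutation, adjusted p = 0.132), called by r alone.

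**Figure D4:**
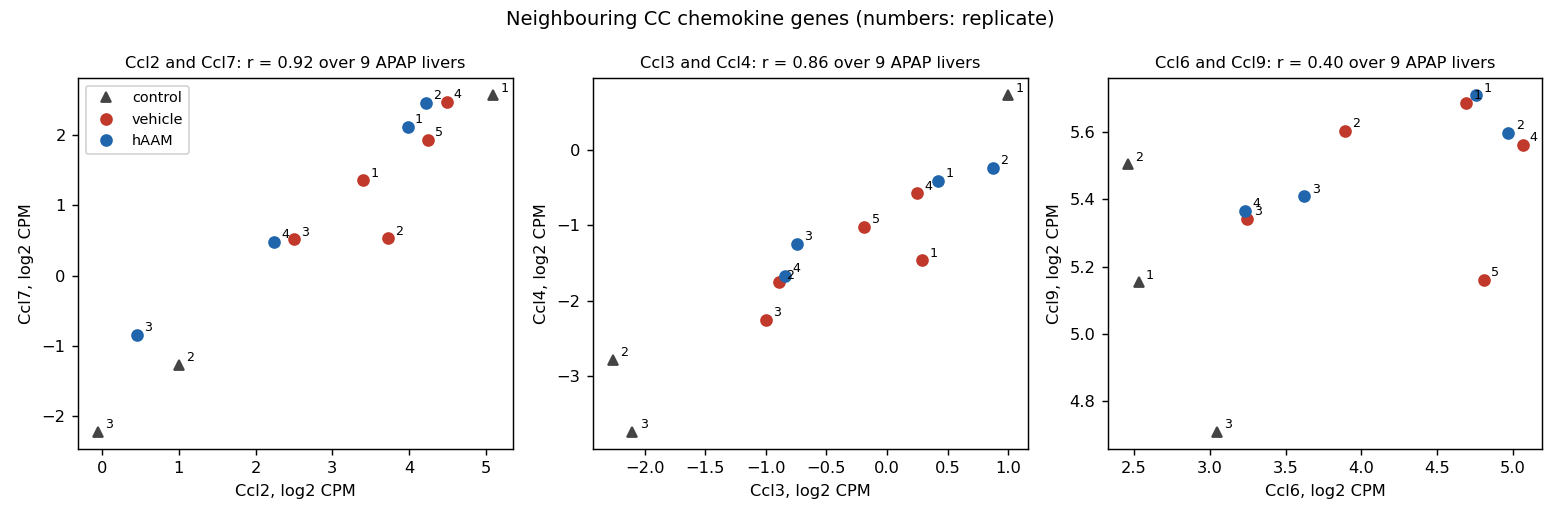
Log2 CPM of neighbouring genes against each other in every liver, with replicate numbers; triangles are control livers and circles are vehicle-treated and hAAM-treated livers. Ccl2 and Ccl7 (r = 0.92) and Ccl3 and Ccl4 (r = 0.86) line up over the 9 APAP livers, and Ccl6 and Ccl9 do so less (r = 0.40). Genes that lie apart are not shown and were not correlated.

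Levels can be compared between genes only per length, as CPM per kilobase of all exons of the gene. On this scale the median of Ccl9 was the highest of the 10 in every group, at 11.7 in control, 15.5 in vehicle-treated and 14.9 in hAAM-treated livers. Ccl6 came next (3.20, 14.4 and 11.0), apart from Ccl9 and from the gene below it in control livers but overlapping both in the APAP groups. Single livers did not all keep this order, since Ccl2 reached 29.99 in control 1 and 19.7 in a vehicle-treated liver, above the highest Ccl9 values of 14.9 and 16.9 in those groups. Ccl6 also passed the highest Ccl9 value of its group, at 18.6 in a vehicle-treated liver and 17.5 in an hAAM-treated liver. In hAAM-treated livers the highest Ccl9 value was 17.2 and the highest Ccl2 value 16.4. In the APAP groups Ccl2 (11.6 and 8.97) and Ccl7 (3.16 and 3.54) followed, whereas in control livers Ccl25 came after Ccl6 (1.83). The median of Ccl25 was 1.36 in both APAP groups, and those of Ccl3, Ccl4, Ccl5 and Ccl24 were between 0.495 and 1.22 there. The median of Ccl22 was lowest in every group, at 0.0338, 0.0666 and 0.0742, and its range lay below that of the gene above it in both APAP groups.

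Of 10 CC receptor genes 8 were in the count table and tested, and Ccr2 and Ccr1 were called higher in both APAP groups, with none called lower. Ccr2, the receptor of CCL2 and CCL7 on inflammatory monocytes, had 3.47, 2.99 and 1.92 CPM in control livers, 20.6, 13.6, 9.76, 29.1 and 12.8 in vehicle-treated and 22.5, 23.9, 8.81 and 9.20 in hAAM-treated livers. All APAP livers were above all control livers, with a log2 fold change of 2.62 (SE 0.47, FDR 0.00211) and 2.53 (SE 0.48, FDR 0.00484). Ccr1, a receptor of CCL3, CCL5, CCL6, CCL7 and CCL9, had 1.41, 0.661 and 0.375 CPM in control livers, 5.11, 3.26, 1.94, 10.5 and 6.08 in vehicle-treated and 5.85, 7.76, 1.05 and 2.05 in hAAM-treated livers. Its log2 fold change was 2.72 (SE 0.75, FDR 0.0174) and 2.36 (SE 0.76, FDR 0.0449), and only hAAM 3 fell within the control range. Without control 1, Ccr2 stayed called in both comparisons (FDR 0.00813 and 0.0150) and Ccr1 with vehicle (FDR 0.0256) but not with hAAMs (FDR 0.0529), although its fold was larger, at 10.25 against 6.60 with vehicle and 7.95 against 5.12 with hAAMs. The Ccr1 call with vehicle was also lost without control 2 (FDR 0.0619) or control 3 (FDR 0.0704), and that with hAAMs in 8 of the 12 fits that left out 1 liver, with FDR up to 0.147 and a level 3.66-fold to 7.95-fold higher.

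Ccr9, the receptor of CCL25, had a log2 fold change of -0.40 (FDR 0.144) with vehicle and -0.38 (FDR 0.212) with hAAMs. Ccr3, the receptor of CCL24, had 0 to 22 counts per liver, and its log2 fold change of 0.59 (FDR 0.510) and -0.17 (FDR 0.889) was not called. None of the 8 receptor genes was called between the treatments.

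**Figure D5:**
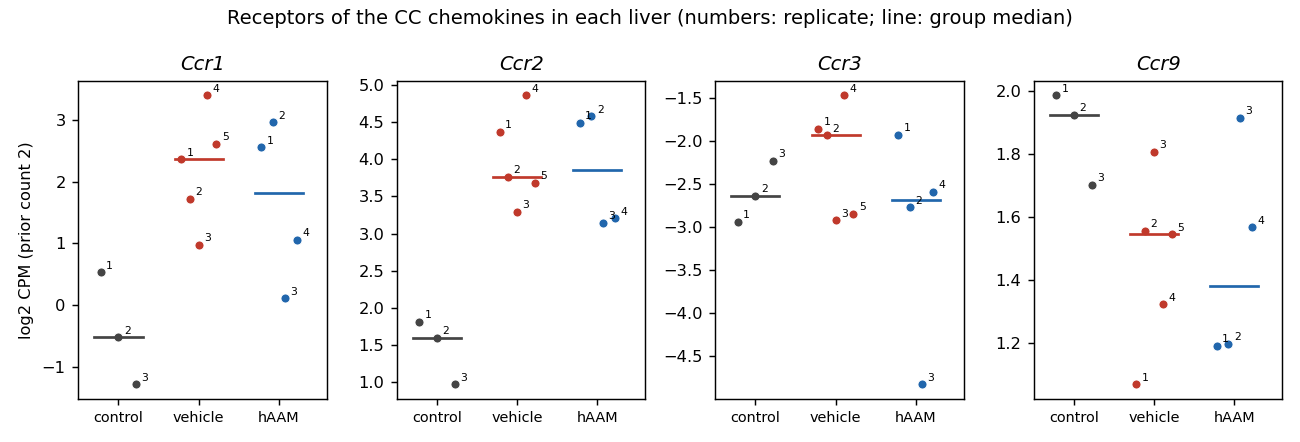
Log2 CPM, with a prior count of 2, of 4 receptor genes in each liver by group, with replicate numbers and a line at the group median; hAAM 3 had 0 counts of Ccr3. Ccr2 is higher in every APAP liver than in any control liver and Ccr1 in all but hAAM 3, while Ccr3 and Ccr9 overlap between groups.

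Other genes of the pathway were counted from lists. Of 14 other CC ligands 6 were tested, and with vehicle none was called higher and 3 lower: Ccl19 (log2 fold change -0.73, FDR 0.0134) and Ccl21a (-1.08, FDR 0.0481), the ligands of CCR7, and Ccl27a (-0.56, FDR 0.0270). The call for Ccl21a rested on control 2, with 413 counts against 121 and 92 in the other two controls. Without control 2 its log2 fold change was -0.29 (FDR 0.502), and the call was also lost without any one of 6 APAP livers (FDR 0.0585 to 0.0980). The call for Ccl27a was lost without control 1, control 3, vehicle 1, vehicle 4 or vehicle 5 (FDR 0.0585 to 0.119), with log2 fold changes of -0.58 to -0.44. With hAAMs Ccl19 alone was called (-0.88, FDR 0.0111). Ackr1, an atypical receptor that binds many chemokines without signalling, was called lower with vehicle (-1.17, FDR 0.00841) and not with hAAMs (-0.76, FDR 0.0806), and the call was lost without control 1 (-0.78, FDR 0.0506). Of 12 inducing signals tested, none was called higher and 7 lower with vehicle and 3 lower with hAAMs. Without control 1 the lower calls were 2, Rela (FDR 0.0132) and Tnfaip3 (FDR 0.0277), and 1, Rela (FDR 0.0211).

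Cell markers were counted beside the chemokines, without a test of whether they moved together. Of 8 markers of recruited monocytes and macrophages, 6 were called higher in each comparison with control, among them Chil3 (log2 fold change 5.67, FDR 9.84e-05, with vehicle) and Trem2 (2.78, FDR 0.000502). Without control 1 the counts were 7 with vehicle and 6 with hAAMs. In that fit Itgam was no longer called (FDR 0.0714 and 0.111), at 5.08-fold with vehicle and 4.64-fold with hAAMs against 5.29-fold and 4.83-fold with all livers, and its calls were also lost without control 2 or control 3 (4.47-fold to 6.04-fold, FDR 0.0530 to 0.123) and, with hAAMs, without hAAM 1, hAAM 2, vehicle 1 or vehicle 5 (3.26-fold to 4.84-fold, FDR 0.0516 to 0.112). Ly6c2 was called in both without control 1 (FDR 0.0297 and 0.0211) and Cd14 with vehicle (FDR 0.0184). With all 8 markers the summed level was 49.95 to 71.2 CPM in control, 127.5 to 272.4 in vehicle-treated and 125.2 to 331.1 in hAAM-treated livers. The lowest APAP livers were hAAM 4 and vehicle 3, which were also the lowest in Ccl6. Of 7 Kupffer cell markers 1, Marco, was called higher in each comparison, with sums of 188 to 269, 227 to 351 and 226 to 308 CPM. Among 6 neutrophil markers none was called (sums 7.09 to 29.2, 11.4 to 46.5 and 12.3 to 42.3 CPM), and without control 1 Mmp8 was called higher in both comparisons (FDR 0.0151 and 0.0374). Of 4 markers of all macrophages, Cd68 and Fcgr1 were called higher in each comparison (sums 87.9 to 110.5, 125 to 211.8 and 127.5 to 190.3 CPM), and without control 1 only Cd68 stayed called. Fcgr1 was then 2.23-fold higher with vehicle (FDR 0.0720) and 2.21-fold with hAAMs (FDR 0.101), against 2.47-fold and 2.45-fold with all livers, and its call with hAAMs was also lost without control 2, control 3, hAAM 1 or hAAM 2 (log2 fold change 1.04 to 1.38, FDR 0.0615 to 0.0801). Of 4 endothelial markers, Lyve1, Cdh5 and Pecam1 were called higher with vehicle (log2 fold change 1.29, 1.01 and 1.00) and Lyve1 and Cdh5 with hAAMs, with sums of 187.2 to 217.5, 239.4 to 350.8 and 217.1 to 349.8 CPM. Without control 1 the calls with vehicle stayed (FDR 0.0317 to 0.0472), although that of Pecam1 was lost without control 3 (log2 fold change 0.88, FDR 0.0723), and both with hAAMs were lost (FDR 0.0838 and 0.0966), where the fold went from 2.22 to 2.03 for Lyve1 and stayed at 1.73 for Cdh5. With hAAMs the Lyve1 call was also lost without control 3 or hAAM 2 (1.98-fold and 2.03-fold) and that of Cdh5 without control 2, control 3, hAAM 1, hAAM 2, vehicle 1 or vehicle 2 (log2 fold change 0.59 to 0.85). Of 3 red cell genes, the globin genes Hbb-bs and Hba-a1 were called higher with vehicle (log2 fold change 2.49 and 2.56, FDR 0.0302 and 0.0303) and not with hAAMs (2.24 and 2.21, FDR 0.0618 and 0.0693), whereas Alas2, an enzyme of heme synthesis, was called lower in both (-1.67, FDR 0.000235, and -1.27, FDR 0.00265). Red cell sums were 118.5 to 192.9 CPM in control, 161.1 to 1404 in vehicle-treated and 165 to 519.5 in hAAM-treated livers, highest in vehicle 5 and lowest among APAP livers in vehicle 3 and hAAM 4. Both globin calls were lost without any one control liver, with folds from 4.38 for Hbb-bs and 4.64 for Hba-a1 (without control 3) to 6.64 and 6.99 (without control 1) and FDR from 0.0643 to 0.109. They stayed without vehicle 5, at a smaller fold of 2.90 for Hbb-bs and 2.95 for Hba-a1 against 5.62 and 5.90 with all livers (FDR 0.0444 and 0.0441). Of 5 dendritic cell markers 1, Xcr1, was called lower with vehicle (-1.20, FDR 0.0263) and none with hAAMs, with sums of 16.1 to 20.8, 16.2 to 19.8 and 17.7 to 21.0 CPM, and that call was lost without control 1 (-1.27, FDR 0.0503), without either other control or without vehicle 4 (FDR 0.0583 to 0.0859). None of 4 B cell markers was called. The part of these cells in the levels of Ccl6, Ccr1 and Ccr2 was not tested.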

How the data were processed

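Livers of 12 mice were measured by paired-end RNA sequencing of ribosomal RNA-depleted libraries. Per the labels and methods, the authors trimmed reads with cutadapt 4.6, aligned them with STAR 2.7.1a to GRCm38 and used summarizeOverlaps for counts per gene, whose mode and use of strand are not given in the sources used here. The deposited values are raw counts. Symbols and coordinates came from GENCODE, and promoters from RefSeq. R 4.3.3 with edgeR 4.0.16 was used: filterByExpr by group, TMM, 1 quasi-likelihood fit of all 12 livers with group as the only term, two-sided tests and Benjamini-Hochberg FDR over 22581 genes. A prior count of 2 entered log2 CPM, and the fitted biological coefficient of variation was 0.214. Scripts were tested on simulated data.

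All 10 members were named in every comparison; of the other lists, receptors of members and up to 4 further genes with the smallest p with vehicle. Siglecf, the named cell markers and, in control 1, the inducing signals were named after their values were seen. Members and lists were chosen with earlier results of these data known. P-values measure the spread between these mice. Alternatives were DESeq2 1.42.0, other scaling, filters, dispersion and samples, a replicate block, and libraries left out; leaving livers out for the genes of the other lists was added after seeing the data. Whether collection times or batches differed between livers is not given in the sources used here. A receptor gene of the list is not reported here.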

Additional observations from a re-analysis of the deposited data

How the results depend on the processing

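Ccl6 was higher against control in every alternative run, and stayed called in 19 of 22 with vehicle and 16 of 22 with hAAMs. The exceptions were the fits without 1 of the livers named with its values and the fit with a replicate block. Replicate numbers recur in the labels across groups, but do not pair the livers: over 10 same-numbered pairs the deviations from group means correlated at -0.458 to 0.385, with 3 above 0.1. With the replicate block, Ccl6 had a log2 fold change of 1.52 (FDR 0.101) with vehicle and 1.49 (FDR 0.107) with hAAMs, 0 chemokines were called with hAAMs and 1, Ccl9 (0.44, FDR 0.0411), with vehicle, and all genes called were 4253 with vehicle and 2959 with hAAMs. Between treatments none of the 10 was called in any alternative. All genes called there were 1 with DESeq2 or without vehicle 3.

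The count of chemokines called against control ranged, leaving out 1 liver at a time, from 1 to 5 with vehicle and from 0 to 3 with hAAMs, both highest without control 1. Without control 2 the 1 called in each was Ccl9, not Ccl6. Over these fits 20.1% to 32% of all genes were called with vehicle and 10.5% to 24.2% with hAAMs, and without control 1 21.5% and 13.1%. Scaled by library size alone, 2 were called in each comparison, Ccl6 and Ccl9, against 43.2% of all genes with vehicle and 32.5% with hAAMs. That scaling moved the median of all genes to 0.357 with vehicle and 0.317 with hAAMs (log2), and made Ccl24 0.26 with vehicle and 0.15 with hAAMs, Ccl2 0.085 and Ccl4 0.24 with hAAMs and Ccl5 -0.06022 between treatments. Its all-gene count with hAAMs was 7340, and 2729 were called with only the 2 groups in the fit. Without control 1, vehicle 3 and hAAM 4, an alternative chosen after seeing the data, 6 and 5 were called, against 23.2% and 13.9% of all genes, with Ccl4 at 2.42 and Ccl24 at 0.030 with vehicle, Ccl2 at 3.03 and Ccl4 at 3.01 with hAAMs, and Ccl5 at -0.1022 and Ccl7 at 0.04668 between treatments. Without vehicle 3 and hAAM 4 alone, Ccl4 was 0.1346 and Ccl5 -0.01726 with hAAMs, and Ccl5 -0.1021 and Ccl7 0.0465 between treatments. The block turned Ccl2 to 0.3331 and Ccl4 to 0.5063 with hAAMs and Ccl9 to -0.0269 between treatments. None of these turned values was called at first.

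Leaving out 1 liver turned other uncalled directions. With vehicle, Ccl2 ran from -0.35 to 3.27, Ccl3 from -0.38 to 2.17, Ccl4 from -1.17 to 2.25, Ccl5 from -0.16 to 0.40, Ccl7 from -0.0873 to 3.37 and Ccl24 from -0.25 to 0.0374. With hAAMs, Ccl2 ran from -0.835 to 2.79, Ccl3 from -0.0496 to 2.49, Ccl4 from -0.625 to 2.79, Ccl5 from -0.151 to 0.405 and Ccl7 from -0.0964 to 3.36. Between treatments, Ccl3 ran from -0.0662 to 0.55, Ccl5 from -0.143 to 0.156, Ccl6 from -0.459 to 0.0788, Ccl7 from -0.508 to 0.353, Ccl9 from -0.0263 to 0.1003, Ccl22 from -0.0111 to 0.399, Ccl24 from -0.3065 to 0.1033 and Ccl25 from -0.0826 to 0.1022. All genes called with hAAMs fell to 2419 without control 3. Beyond the removal of livers, the cause of these shifts was not tested. No value among 28 groups of 4 or 5 livers was an outlier by Dixon's test. Counts were lowest for Ccl22, Ccl4, Ccl7 and Ccl3, with as few as 1, 2, 9 and 10 in a liver, and control comparisons rest on 3 livers.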
